A study of Mus musculus with 12 samples.

Results

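The genes flanking the Mybpc3 locus are the neighbours, on mouse chromosome 2, of the gene that carries the engineered deletion of this study. They were chosen by position and by read count, apart from genes that the rule leaves out by name. A gene was taken if its deposited start lies within 2 Mb of the start of Mybpc3 and if it had a mean of at least 10 reads over the 12 libraries. The deposited start is a gene's lowest coordinate and is used for all distances from Mybpc3. For a gene on the minus strand it is the 3′ end. Mybpc3 itself, Cry2, Ndufs3 and Psmc3 were left out by the rule. Of 45 genes of the table in that window, 35 met the rule, out of 17379 genes in the whole table, and all 35 were among the 13849 genes tested. The 6 genes that fell short of 10 reads were Olfr1272, F2, Chrm4, Large2, 1700029I15Rik and Syt13. Just outside the limit on reads was Chrm4 with a mean of 5.33 reads, and just inside it was Prdm11 with 13.0. Just outside the limit on distance was Trp53i11, which starts 2069.5 kb from Mybpc3. On the other side the next gene of the table, Olfr1034, starts 5071.6 kb away.

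Whole-heart mRNA was sequenced from mice aged 6 months, with 3 libraries in each of 4 groups. The compound group was heterozygous for HRCS96A and homozygous for MYBPC3Δ25bp (3 females). The MYBPC3 deletion group was homozygous for MYBPC3Δ25bp (2 males and 1 female). The HRC variant group was heterozygous for HRCS96A (3 females), and the nontransgenic group was C57BL/WT (2 males and 1 female). HRCS96A is an amino acid substitution in HRC, a protein of the sarcoplasmic reticulum that binds calcium, and MYBPC3Δ25bp is a deletion of 25 bp. The compound and MYBPC3 deletion mice together are called carriers (6 libraries), and the HRC variant and nontransgenic mice together non-carriers (6 libraries). Each side therefore holds 2 males and 4 females, and 3 libraries with the HRC variant. Founder lines, the strain in which the deletion was made and any backcrossing were not stated in the labels. The labels number the samples but do not state litters, so p-values rest on the spread among 12 libraries that may not all be independent.

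Mybpc3 encodes cardiac myosin-binding protein C, a thick-filament protein that regulates how myosin heads meet actin. The deletion of 25 bp is known in humans as an intronic variant near the end of MYBPC3 that disturbs splicing and is linked to cardiomyopathy. A gene's neighbours matter in an edited mouse because regulatory DNA can act over long distances and because flanking DNA of the founder travels with an edited allele through backcrossing. The neighbourhood of Mybpc3 is gene-rich. It holds genes for autophagy, mitochondrial proteins, nuclear receptors, the neuromuscular junction and myeloid transcription, with no known common pathway.

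Total counts were between 15615182 and 20581197 reads per library. Between replicates, the biological coefficient of variation common to all genes was 21.5%. Mybpc3 is given first as the edited gene. It had 3532, 3658 and 3923 CPM (counts scaled to the size of each library) in compound hearts, against 2897, 3297 and 3848 CPM in HRC variant hearts, and these groups overlap. It had 2464, 2918 and 2532 CPM in MYBPC3 deletion hearts, against 4885, 3521 and 3630 CPM in nontransgenic hearts, with no overlap. On the log2 scale the MYBPC3 deletion difference was -0.60 (95% interval -0.96 to -0.25, unadjusted p 0.00275, edgeR adjusted p 0.357), and DESeq2 gave -0.61 with an adjusted p of 0.0199. For compound against HRC variant it was 0.15 (-0.21 to 0.50). Between backgrounds the difference of these differences was 0.75 (0.25 to 1.25), with an unadjusted p of 0.00639 and an edgeR adjusted p of 0.517, and DESeq2 gave 0.76 with an adjusted p of 0.0489. Mybpc3 thus passed in both of these contrasts by DESeq2 fitted here to all 12 libraries, and in neither by edgeR. The authors' deposited DESeq2 result for the MYBPC3 deletion against nontransgenic was -0.61 with a q-value of 0.269, which did not pass. Carriers less non-carriers gave -0.23 (-0.48 to 0.02, edgeR adjusted p 0.816). A count over the whole gene does not show whether a 25 bp deletion is present, so it does not check the labels. Markers of heart muscle summed to between 69840 and 104200 CPM in every library, and the liver markers to between 0.337 and 1.02 CPM. Atrial muscle markers differed widely. All 6 summed to 133 to 423 CPM in compound hearts, against 8443, 2788 and 196 CPM in HRC variant replicates 1, 2 and 3. They summed to 3358 to 6082 CPM in MYBPC3 deletion hearts, against 3442 to 8548 CPM in nontransgenic hearts. The compound libraries and HRC variant replicate 3 were thus low in atrial RNA beside all others. In comparisons that include compound libraries, genotype and the atrial RNA of a sample cannot be told apart. Markers of B cells were high in MYBPC3 deletion replicate 2 (73.0 CPM) and nontransgenic replicate 2 (37.8 CPM), and at 3.26 to 8.02 CPM elsewhere. In whole hearts, fewer cells of a type and less RNA per cell cannot be told apart.

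Of the 35 genes, 12 start before Mybpc3 on the plus strand of the chromosome and 23 start after it. The first group reaches from Ptprj, 688.3 kb away, to Spi1, 35.6 kb away. The second reaches from Madd, 17.7 kb away, to Prdm11, 1846.7 kb away. Mybpc3 occupies chromosome 2 from 91118022 to 91136573 on the plus strand (GRCm38.p6), and its end overlaps the deposited span of Madd, on the opposite strand, by 828 bp. In the GENCODE M21 annotation these genes are 843 bp apart. In all, 14 of the 35 genes overlap another gene in the deposited coordinates, among them Kbtbd4 and Ptpmt1 by 1935 bp, and Acp2 and Ddb2 by 3355 bp. Neither the labels nor the table state whether reads were counted by strand, so values of overlapping genes are uncertain where reads could fall to either. The strand printed in the deposited table differs from GENCODE for 6 of the 35, and GENCODE strands are used here.

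Levels per length spanned more than 2 orders of magnitude. Mean FPKM (fragments scaled to transcript length and to sequencing depth, the authors' values) was 0.385 for the lowest gene, Prdm11, and 119 for the highest, Mtch2, with a median of 8.32 over the 35 genes and 6.43 over all genes tested. Mtch2, which inserts proteins into the outer mitochondrial membrane, was followed by Pacsin3, a membrane-curving protein of muscle, at 91.0 FPKM and by Dgkz, a kinase that removes the signalling lipid diacylglycerol, at 24.9 FPKM. At the lower end stood Prdm11, a PR-domain protein of transcriptional regulation, Agbl2, a carboxypeptidase that trims tubulin tails, at 0.411 FPKM, and Madd, an exchange factor for Rab proteins, at 1.49 FPKM. A mean over 10 FPKM was seen for 14 of the 35 genes, and a mean under 1 FPKM for 2. The spread between libraries of a group, as SD of log2 CPM, had a median of 0.21 over the genes. It was 0.08 for Ambra1 and 0.09 for Arfgap2, and 0.50 for Mdk and 0.48 for Prdm11.

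**Figure D1:**
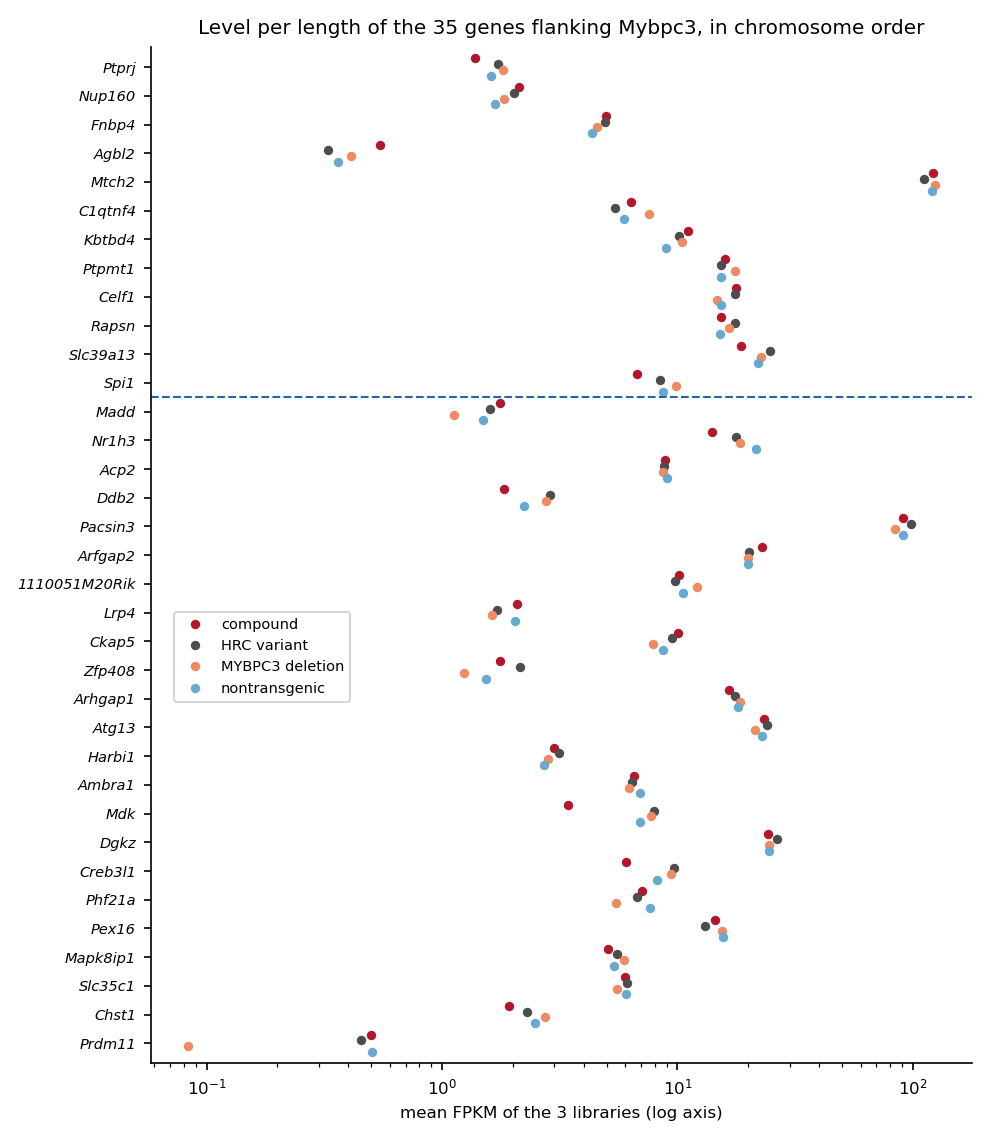
Level of the 35 genes flanking Mybpc3 as mean FPKM of the 3 libraries of each group, on a log axis, with genes in chromosome order from top to bottom and a dashed line at the position of Mybpc3. The 4 groups lie close together for most genes, while the levels of different genes run from 0.385 FPKM (Prdm11, mean of all libraries) to 119 FPKM (Mtch2); the Prdm11 point of the MYBPC3 deletion group stands apart to the left.

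None of the 35 genes passed edgeR's quasi-likelihood test at an adjusted p under 0.05 between carriers and non-carriers, and 0.0% of all 13849 genes tested did. Without adjustment, 2 of the 35 genes (5.71%) had a p under 0.05, against 6.18% of all genes (856), so the share was near the background. DESeq2 called none of the 35 and 0.116% of all genes (16), and 3 of the 35 had an unadjusted p under 0.05 there, against 7.03% of all genes (973). The fitted differences had a median of -0.06 on the log2 scale over the 35 genes, with 11 above 0 and 24 below. Over all genes tested the median was -0.02, with 45.6% above 0. The median size of a difference, whatever its sign, was 0.09 for the 35 genes and 0.10 for all genes.

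The intervals give the size of change that the libraries leave room for. For 32 of the 35 genes (91.4%) the whole 95% interval of the carrier difference lay within a 2-fold change in either direction, and for 28 (80.0%) it lay within 1.5-fold. Over all genes tested the shares were 85.0% and 69.9%. The 3 genes with a wider interval were Agbl2, Mdk and Prdm11. Reads per library were 10 to 46 for Agbl2, 40 to 210 for Mdk and 1 to 29 for Prdm11, while Ddb2, with 39 to 112 reads, had an interval within 2-fold. The Mdk difference was -0.54, and -0.15 without HRC variant replicate 1. For Agbl2 the difference was 0.43 (interval -0.27 to 1.13), the highest of the 35, with 10 reads in MYBPC3 deletion replicate 2 and 18 to 46 in every other library.

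**Figure D2:**
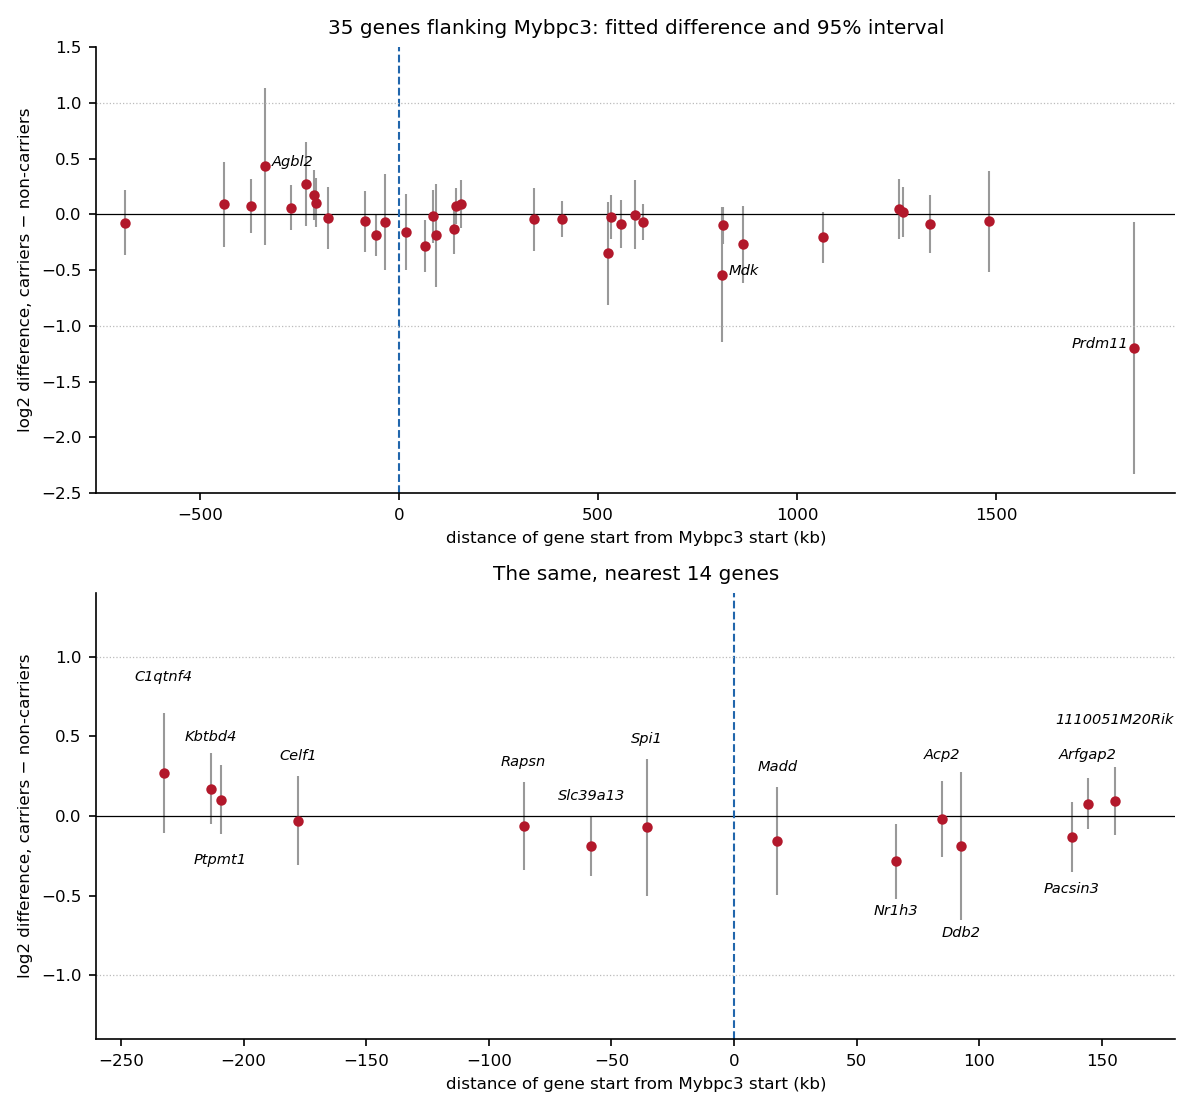
Fitted log2 difference, carriers less non-carriers, of each flanking gene (points) with its 95% interval (bars) against the distance of its start from the start of Mybpc3 in kb (dashed line at 0); dotted lines mark a 2-fold change. The upper panel shows all 35 genes and the lower panel the 14 within 250 kb, whose intervals all lie within 2-fold; Prdm11, Mdk and Agbl2 have the widest intervals.

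The 14 genes that start within 250 kb of Mybpc3 had a median difference of -0.05, and all 14 intervals lay within 2-fold. The 6 genes at 250 to 500 kb had a median of 0.07, the 9 genes at 500 kb to 1 Mb had -0.09, and the 6 genes at 1 to 2 Mb had -0.08. All 9 genes of the third range were below 0, from -0.54 for Mdk to a value under 0.01 in size for Harbi1, and none passed the test. By side, the 12 genes before Mybpc3 had a median of 0.07 (7 above 0, 5 below) and the 23 after it -0.09 (4 above 0, 19 below). The 1053 tested genes of chromosome 2 beyond 2 Mb had a median of -0.02 with 43.9% above 0. The 98 genes flanking Hrc, found by the same rule around the other altered gene, had a median of -0.03 for the same contrast, with none called and 8 (8.16%) at an unadjusted p under 0.05. Neighbouring genes were read in the same libraries, so these counts are descriptions with no test.

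Psmc3, left out by the rule, starts 64.0 kb before Mybpc3, nearer than Rapsn and Celf1. Among the 35 genes, the nearest 4 on each side by deposited start are Celf1, Rapsn, Slc39a13 and Spi1 before Mybpc3, and Madd, Nr1h3, Acp2 and Ddb2 after it. Of these, Nr1h3 and Slc39a13 had the smallest unadjusted p between carriers and non-carriers. Nr1h3 encodes the liver X receptor alpha, a nuclear receptor for oxysterols that drives cholesterol efflux genes in macrophages and other cells. Slc39a13 encodes the zinc transporter ZIP13 of the secretory pathway. Their RefSeq promoter windows (GRCm38.p6, 250 bases before to 50 after the start) are printed because these are the nearest neighbours with the smallest p. The Nr1h3 window lies at a RefSeq start inside the gene, 7718 bp from the 5′ end of Nr1h3 in GENCODE M21, and the Slc39a13 window has its start 102 bp from the GENCODE 5′ end of its gene. A table of such windows matched 27 of the 35 genes, with 39 windows, since 12 genes had 2. Capitals mark a GC box (GGGCGG, read on either strand, so CCGCCC as well), a CCAAT box (CCAAT, either strand) or a TATA box (TATAAA, either strand).
Nr1h3, chr2:91195067-91195366, minus strand: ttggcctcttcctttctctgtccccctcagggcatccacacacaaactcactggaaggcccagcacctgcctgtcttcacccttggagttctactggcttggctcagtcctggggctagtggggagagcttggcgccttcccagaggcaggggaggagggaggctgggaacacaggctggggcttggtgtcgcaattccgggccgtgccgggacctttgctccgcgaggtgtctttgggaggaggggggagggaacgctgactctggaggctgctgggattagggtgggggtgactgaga
Slc39a13, chr2:91070266-91070565, minus strand: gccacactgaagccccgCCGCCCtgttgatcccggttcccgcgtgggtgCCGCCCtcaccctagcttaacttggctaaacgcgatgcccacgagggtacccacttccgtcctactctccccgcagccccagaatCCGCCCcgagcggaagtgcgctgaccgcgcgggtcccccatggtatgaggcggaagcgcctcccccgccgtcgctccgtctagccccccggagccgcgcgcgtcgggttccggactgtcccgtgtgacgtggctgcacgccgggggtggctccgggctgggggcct
The Nr1h3 window has no match to any of the 3 motifs and 8 CpG dinucleotides, while the Slc39a13 window has 3 GC boxes and 36 CpG dinucleotides. A GC box was found in 51.3% of the 39 windows and in 35.7% of all 32851 windows of the table, a CCAAT box in 23.1% and 37.4%, and a TATA box in 10.3% and 13.6%. Median G+C content was 58.7% in the 39 windows and 52.7% in all, and the median number of CpG dinucleotides was 14 and 7. These matches describe the letters in the windows.

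Nr1h3 had 24.7, 25.7 and 21.0 CPM in compound hearts and 27.0, 38.9 and 27.2 CPM in MYBPC3 deletion hearts, against 31.9, 27.7 and 28.3 CPM in HRC variant hearts and 36.4, 35.5 and 39.5 CPM in nontransgenic hearts. The 5 carriers other than MYBPC3 deletion replicate 2 lay below all 6 non-carriers, and that replicate, at 38.9 CPM, lay above 5 of the 6. Carriers averaged 27.4 ± 6.05 CPM and non-carriers 33.2 ± 4.71 CPM (SD, n = 6 each). The log2 difference was -0.28 (95% interval -0.52 to -0.05), with an unadjusted p of 0.0223 and an edgeR adjusted p of 0.716, so the gene did not pass. It was -0.27 (-0.60 to 0.07) for the MYBPC3 deletion against nontransgenic and -0.30 (-0.64 to 0.03) for compound against HRC variant. The test of the difference between those backgrounds gave -0.04 (interval -0.51 to 0.44). MYBPC3 deletion replicate 2 also had the highest sum of myeloid markers (10 of 10 detected), at 725 CPM, against 357 to 711 CPM in the other libraries, and the highest sum of B-cell markers. Within the myeloid list that library was highest for Lyz2 (226 CPM), C1qb (131 CPM), C1qa (106 CPM) and Fcgr1 (4.56 CPM). It was not highest for Cd68, Csf1r, Mrc1, Adgre1, C1qc or Itgam, with Csf1r at 56.9 CPM against 84.5 CPM in HRC variant replicate 1. Without that replicate the carrier difference was -0.38 with an unadjusted p of 0.00135 and an edgeR adjusted p of 0.805. It was -0.21 without nontransgenic replicate 3 (unadjusted p 0.114) and -0.21 without MYBPC3 deletion replicate 3 (unadjusted p 0.113). Each of these is the only female of its group. Under the sex term both runs then compare the same males on that background, so they are not separate results. The part of the marker genes in these values was not tested.

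Slc39a13 had 43.3, 43.9 and 45.2 CPM in compound hearts, against 68.5, 49.7 and 53.8 CPM in HRC variant hearts. All 3 compound libraries lay below all 3 HRC variant libraries. On the other background it had 50.7, 51.3 and 55.2 CPM in MYBPC3 deletion hearts, against 49.8, 50.02 and 57.8 CPM in nontransgenic hearts, and these groups overlap. The log2 difference of compound against HRC variant was -0.38 (95% interval -0.64 to -0.11, unadjusted p 0.00957, edgeR adjusted p 0.667). The difference of MYBPC3 deletion against nontransgenic had an interval of -0.27 to 0.27. The carrier difference over both backgrounds was -0.19 (interval -0.38 to 0.00, unadjusted p 0.0506). HRC variant replicate 1, the highest library for Slc39a13, was also the highest for fibroblast markers. All 5 were detected and summed to 2245 CPM there, against 1064 to 1943 CPM in the other 11 libraries. Without that library the difference of compound against HRC variant was -0.23. It was -0.28 with the HRC variant libraries high in atrial markers left out, a choice made after seeing the data. That choice leaves HRC variant replicate 3 alone in its group. The part of fibroblast and atrial RNA in these values was not tested.

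The other 6 nearest genes had carrier differences between -0.19 and -0.02, with intervals that all include 0. Spi1, the gene whose start lies closest to Mybpc3 on the upstream side, encodes PU.1, a transcription factor that marks myeloid and B cells. It had 7.96, 10.7 and 9.56 CPM in compound hearts and 11.9, 14.5 and 12.9 CPM in MYBPC3 deletion hearts, against 17.2, 6.96 and 10.5 CPM in HRC variant hearts and 11.3, 15.7 and 9.01 CPM in nontransgenic hearts. Carriers and non-carriers overlap over most of their range. Its highest libraries, HRC variant replicate 1, nontransgenic replicate 2 and MYBPC3 deletion replicate 2, were also the 3 with the highest sums of myeloid markers, at 711, 590 and 725 CPM. Not every marker was high in MYBPC3 deletion replicate 2, with Csf1r at 56.9 CPM against 84.5 CPM in HRC variant replicate 1. The part of those markers in the Spi1 values was not tested.

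Madd has the nearest deposited start after Mybpc3, and the deposited spans of these genes overlap. Madd is on the minus strand, so that coordinate is its 3′ end, and its 5′ end in GENCODE M21 is at 91183837. It had 6.57, 6.22 and 7.12 CPM in MYBPC3 deletion hearts, against 9.53, 8.37 and 9.25 CPM in nontransgenic hearts, with no overlap between the groups. In compound hearts it had 10.7, 12.1 and 9.45 CPM, against 6.63, 12.9 and 9.99 CPM in HRC variant hearts, where the groups overlap. The log2 difference was -0.45 (interval -0.93 to 0.04, unadjusted p 0.0673) for the MYBPC3 deletion and 0.13 (-0.35 to 0.61) for compound against HRC variant. The test of the difference between backgrounds gave 0.58 with an interval of -0.10 to 1.26.

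Celf1, an RNA-binding regulator of splicing in heart and muscle, had a carrier difference of -0.03 (interval -0.31 to 0.25) at 83.0 ± 16.9 CPM in carriers and 84.1 ± 17.7 CPM in non-carriers (SD, n = 6 each). Rapsn, the scaffold that clusters acetylcholine receptors at the neuromuscular junction, had -0.06 (-0.34 to 0.21). Acp2, a lysosomal acid phosphatase, had -0.02 (-0.26 to 0.22). Ddb2, which recognises ultraviolet damage in DNA, was low in reads and had -0.19 (-0.65 to 0.27). It had 2.16, 4.88 and 3.02 CPM in compound hearts, against 4.01, 5.86 and 5.71 CPM in HRC variant hearts, and these groups overlap.

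By function, the largest group held 11 genes of transcription, chromatin, DNA repair and RNA. Their median carrier difference was -0.19, with 2 above 0 and 9 below, and none passed. Among them Phf21a, a subunit of the complex in which the demethylase LSD1 removes methyl groups from histone H3, had 24.4, 19.7 and 28.9 CPM in MYBPC3 deletion hearts, against 30.3, 33.3 and 36.5 CPM in nontransgenic hearts. All 3 MYBPC3 deletion libraries lay below all 3 nontransgenic ones, with a log2 difference of -0.46 (interval -0.79 to -0.14, unadjusted p 0.00913, edgeR adjusted p 0.462). In compound hearts it had 35.6, 25.8 and 31.7 CPM, against 32.1, 32.3 and 25.9 CPM in HRC variant hearts, groups that overlap, with a difference of 0.05 (-0.28 to 0.37). The test of the difference between backgrounds gave 0.51 (0.05 to 0.97) with an unadjusted p of 0.0329 and an edgeR adjusted p of 0.568. With both libraries high in B-cell markers left out, a choice made after seeing the data, the MYBPC3 deletion difference was -0.33 with an unadjusted p of 0.0889.

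Prdm11 had the largest fitted difference between carriers and non-carriers and the fewest reads. It had 2, 1 and 5 reads in the MYBPC3 deletion libraries, against 9, 16 and 29 in the nontransgenic ones, or 0.126, 0.0634 and 0.266 CPM against 0.536, 0.822 and 1.41 CPM. In compound libraries it had 21, 11 and 17 reads, against 3, 25 and 17 reads in HRC variant libraries. The groups do not overlap on the background without the HRC variant and overlap on the other. The log2 difference was -2.59 (interval -4.33 to -0.85, unadjusted p 0.00672, edgeR adjusted p 0.434) for the MYBPC3 deletion against nontransgenic. For compound against HRC variant it was 0.19 (-1.25 to 1.63), and the difference between backgrounds was 2.78 (0.52 to 5.04, unadjusted p 0.0197, edgeR adjusted p 0.563). Over carriers and non-carriers it was -1.20 (-2.33 to -0.07, unadjusted p 0.0389, edgeR adjusted p 0.779), and Prdm11 and Nr1h3 are the 2 genes counted above with a p under 0.05. Since Prdm11 lies 1846.7 kb from Mybpc3, it is also the most distant of the 35.

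Creb3l1, a membrane-bound transcription factor of the endoplasmic reticulum that promotes collagen secretion, had 16.4, 14.1 and 9.45 CPM in compound hearts, against 26.6, 15.7 and 20.6 CPM in HRC variant hearts. These groups overlap at a single library of each. The difference was -0.65 (interval -1.14 to -0.17, unadjusted p 0.0125, edgeR adjusted p 0.689). In MYBPC3 deletion hearts it had 24.5, 24.3 and 13.1 CPM, against 18.9, 20.3 and 16.3 CPM in nontransgenic hearts, with a difference of 0.11 (-0.37 to 0.60). The test of the difference between backgrounds gave -0.77 (-1.45 to -0.08, unadjusted p 0.0319). HRC variant replicate 1, highest in fibroblast markers, was also highest in Creb3l1, and without it the compound difference was -0.45. With the HRC variant libraries high in atrial markers left out, the compound difference was -0.62. Zfp408, a zinc finger protein, had -0.35 (-0.81 to 0.11) between carriers and non-carriers. Nup160 of the nuclear pore had 0.09 (-0.29 to 0.47), and Fnbp4, a formin-binding protein, had 0.07 (-0.17 to 0.31).

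The secreted genes were Mdk and C1qtnf4. Mdk encodes midkine, a heparin-binding growth factor. It had 2.38, 2.81 and 2.24 CPM in compound hearts, against 10.4, 2.93 and 3.61 CPM in HRC variant hearts. The groups do not overlap, though the highest compound and the lowest HRC variant library nearly touch and HRC variant replicate 1 lies far above both. The log2 difference was -1.19 (interval -2.06 to -0.32, unadjusted p 0.0111, edgeR adjusted p 0.667). Without HRC variant replicate 1 it was -0.40, with an unadjusted p of 0.149. With the HRC variant libraries high in atrial markers left out, which keeps replicate 3 alone in that group, it was -0.54. In MYBPC3 deletion hearts Mdk had 7.14, 5.14 and 4.57 CPM, against 6.08, 5.60 and 4.04 CPM in nontransgenic hearts, which overlap, with a difference of 0.11 (-0.73 to 0.95). Mdk was lower in all 3 compound libraries than in the other 9, by a margin of 2.81 against 2.93 CPM. This split was seen in the values, and the share of all genes split this way was not counted. The atrial muscle markers were also low in compound hearts, and the fibroblast markers highest in HRC variant replicate 1, and their part in the Mdk values was not tested. C1qtnf4, of the family of C1q and tumour necrosis factor related proteins, had a carrier difference of 0.27 (-0.11 to 0.65).

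**Figure D3:**
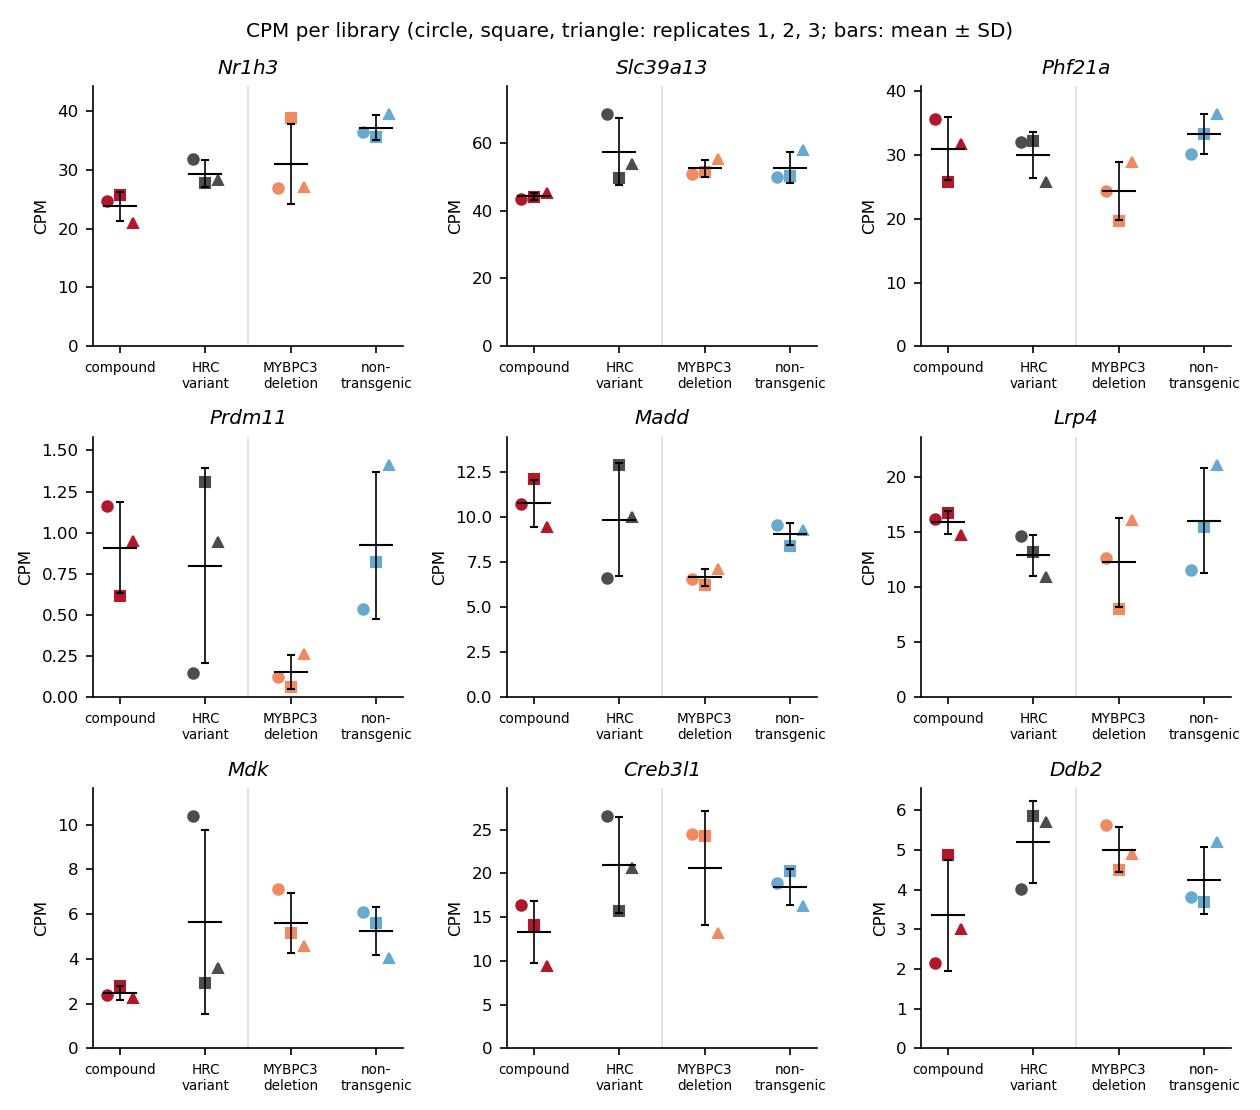
CPM of 9 flanking genes in each library (circle, square and triangle for replicates 1, 2 and 3) with the mean and SD of the 3 libraries of a group; a vertical line separates the pair with the HRC variant (compound, HRC variant) from the pair without it (MYBPC3 deletion, nontransgenic). Nr1h3 at 38.9 CPM in MYBPC3 deletion replicate 2 and Mdk at 10.4 CPM in HRC variant replicate 1 stand apart from the other libraries of their groups.

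The 4 genes of autophagy, lysosome and ubiquitin had a median carrier difference of -0.04, with 1 above 0 and 3 below. Atg13, a subunit of the kinase complex that starts autophagosome formation, had 81.0 ± 9.12 CPM in carriers and 86.0 ± 9.88 CPM in non-carriers (SD, n = 6 each), a difference of -0.09 (interval -0.30 to 0.13). Ambra1, which links autophagy to ubiquitin ligases, had 29.9, 31.3 and 32.5 CPM in MYBPC3 deletion hearts, against 33.0, 36.0 and 38.7 CPM in nontransgenic hearts. These groups do not overlap, and the difference was -0.20 (-0.43 to 0.03, unadjusted p 0.0866). In compound hearts Ambra1 had 34.6, 34.6 and 30.8 CPM, against 32.1, 32.2 and 31.7 CPM in HRC variant hearts, where the groups overlap. Kbtbd4, a substrate adaptor of a ubiquitin ligase, had a carrier difference of 0.17 (-0.05 to 0.40).

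The 3 genes of mitochondria and peroxisomes all had fitted carrier differences above 0, with a median of 0.06, and none passed. Mtch2 had 172 ± 11.4 CPM in carriers and 165 ± 22.1 CPM in non-carriers (SD, n = 6 each), a difference of 0.06 (interval -0.14 to 0.26). Ptpmt1, a phosphatase in the synthesis of the mitochondrial lipid cardiolipin, had 0.10 (-0.12 to 0.32). Pex16, which places membrane proteins in peroxisomes, had 0.05 (-0.22 to 0.32).

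Among 6 genes of the cytoskeleton and membrane traffic, 3 differences were above 0 and 3 below, with a median of 0.02. Pacsin3 had 147, 173 and 173 CPM in compound hearts and 157, 154 and 138 CPM in MYBPC3 deletion hearts, against 164, 165 and 191 CPM in HRC variant hearts and 205, 139 and 167 CPM in nontransgenic hearts. Carriers and non-carriers overlap, and the difference was -0.13 (interval -0.35 to 0.09). Arfgap2, which activates GTP hydrolysis by Arf proteins on Golgi vesicles, had 77.8, 78.7 and 71.4 CPM in compound hearts, against 65.8, 64.7 and 65.9 CPM in HRC variant hearts. The groups do not overlap, with a difference of 0.21 (-0.01 to 0.44, unadjusted p 0.0616), while over carriers and non-carriers it was 0.08 (-0.08 to 0.24). The gene known by the clone name 1110051M20Rik overlaps Arfgap2 by 4132 bp in the deposited coordinates, which makes its counts uncertain, and had 0.09 (-0.12 to 0.31). Ckap5, a microtubule polymerase, had 47.8, 46.6 and 57.4 CPM in MYBPC3 deletion hearts, against 53.0, 55.6 and 65.8 CPM in nontransgenic hearts, which overlap, and a difference of -0.20 (-0.43 to 0.03).

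Of 6 genes of signalling and receptors, 1 carrier difference was above 0 and 5 were below, with a median of -0.07. Dgkz had 89.8 ± 5.54 CPM in carriers and 96.1 ± 8.89 CPM in non-carriers (SD, n = 6 each), a difference of -0.10 (interval -0.26 to 0.07). Lrp4, the receptor for agrin at the neuromuscular junction, had 8.05 to 16.1 CPM in MYBPC3 deletion hearts, against 11.6 to 21.1 CPM in nontransgenic hearts, which overlap. In compound hearts it had 16.2, 16.8 and 14.8 CPM, against 14.6, 13.2 and 10.9 CPM in HRC variant hearts, which do not overlap. Its differences were -0.39 (-0.80 to 0.01) without and 0.30 (-0.10 to 0.70) with the HRC variant. The -0.39 was -0.24 without MYBPC3 deletion replicate 2, -0.59 without MYBPC3 deletion replicate 1, and -0.15 with both libraries high in B-cell markers left out, the same choice made after seeing the data. The test of the difference between backgrounds gave 0.69 (0.12 to 1.26) with an unadjusted p of 0.0214 and an edgeR adjusted p of 0.563. Mapk8ip1, a scaffold of the JNK kinases, had a carrier difference of 0.02 (-0.20 to 0.24), and Ptprj, a receptor tyrosine phosphatase, had -0.08 (-0.37 to 0.22). The 3 genes of transport and sugars, Slc39a13, the fucose-nucleotide transporter Slc35c1 and the sulfotransferase Chst1, had carrier differences of -0.19, -0.09 and -0.06.

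Among the RefSeq windows matched, 2 pairs of genes read away from each other have windows that overlap on opposite strands. The RefSeq starts of Zfp408 and Arhgap1 are 327 bp apart with 174 bp shared between the windows, and those of Atg13 and Harbi1 are 260 bp apart with 241 bp shared. The Arhgap1 RefSeq start lies 258 bp from the GENCODE M21 5′ end of its gene. In GENCODE M21, Zfp408 and Arhgap1 have 68 bp between them. Nr1h3 and Acp2 also lie head to head, with 50 bp between them in GENCODE M21, though the matched Nr1h3 window is elsewhere. For each of the 2 pairs a single window is printed because it holds most of the DNA between the 2 RefSeq starts. By GENCODE M21, where Arhgap1 begins at 91649860, the Arhgap1 window lies inside that gene. It holds none of the 68 bp between Zfp408 and Arhgap1.
Arhgap1, chr2:91649868-91650167, plus strand: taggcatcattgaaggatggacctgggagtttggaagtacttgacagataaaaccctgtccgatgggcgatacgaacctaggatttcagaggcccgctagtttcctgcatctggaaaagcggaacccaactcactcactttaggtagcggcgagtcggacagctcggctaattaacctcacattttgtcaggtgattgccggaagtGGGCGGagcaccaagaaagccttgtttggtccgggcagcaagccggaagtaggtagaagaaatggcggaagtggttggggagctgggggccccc
Harbi1, chr2:91710602-91710901, plus strand: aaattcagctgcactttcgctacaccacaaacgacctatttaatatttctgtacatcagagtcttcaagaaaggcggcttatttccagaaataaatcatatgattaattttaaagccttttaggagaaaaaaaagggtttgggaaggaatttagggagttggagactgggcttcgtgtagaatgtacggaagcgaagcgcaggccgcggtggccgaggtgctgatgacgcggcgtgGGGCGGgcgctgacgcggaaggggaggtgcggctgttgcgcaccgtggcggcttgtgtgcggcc
Capitals again mark the GC box, which occurs 1 time in each of these windows, and the CpG dinucleotides number 14 and 22. Arhgap1, which inactivates the small GTPase Cdc42, had a carrier difference of -0.03 (interval -0.23 to 0.17), beside -0.35 (-0.81 to 0.11) for its partner Zfp408. Harbi1, derived from a transposase, had an interval of -0.31 to 0.30, beside -0.30 to 0.13 for Atg13. All 4 intervals include 0.

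The deletion was compared on each background by libraries that the other comparison does not use. Both comparisons came from the same fit and share its estimate of the spread and its sex term, so their p-values are not independent. For the MYBPC3 deletion against nontransgenic, no gene of the 35 passed edgeR's test, 0.0% of all genes did, and 2 of the 35 (5.71%) had an unadjusted p under 0.05, Prdm11 and Phf21a, against 8.16% of all genes. The median difference was -0.03, with 15 above 0 and 20 below, and 32 intervals lay within 2-fold. For compound against HRC variant, no gene passed, 0.0% of all genes did, and 3 of the 35 (8.57%) had an unadjusted p under 0.05, Slc39a13, Mdk and Creb3l1, against 6.30% of all genes. The median was 0.04, with 19 above 0 and 16 below, and 30 intervals lay within 2-fold. DESeq2 called none of the 35 in either comparison, against 0.664% and 0.325% of all genes. It had 2 and 4 of them at an unadjusted p under 0.05, against 9.09% (1259) and 7.24% (1003) of all genes. Prdm11 had no DESeq2 adjusted p for the MYBPC3 deletion against nontransgenic, so it could not be called there. In the authors' deposited table, none of the 35 had a q-value under 0.05 in either comparison. The smallest q there was 0.870 for the MYBPC3 deletion against nontransgenic and 0.508 for compound against HRC variant, and 0.0945% and 0.389% of all genes with a q-value passed.

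The test of the difference between backgrounds called none of the 35 genes and 0.0% of all genes. At an unadjusted p under 0.05 stood 5 of the 35 (14.3%), Prdm11, Lrp4, Creb3l1, Phf21a and Mdk, against 8.54% of all genes (1183). DESeq2 likewise called none of the 35, against 0.361% of all genes. It had 6 of the 35 at an unadjusted p under 0.05, against 9.58% of all genes (1327). Its own filter left Prdm11, Lrp4, Creb3l1 and Mdk without an adjusted p there, so DESeq2 could not call them. The fitted differences of the deletion had the same sign on both backgrounds for 15 of the 35 genes (42.9%), 7 above 0 in both and 8 below 0 in both, against 45.7% of all genes tested.

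**Figure D4:**
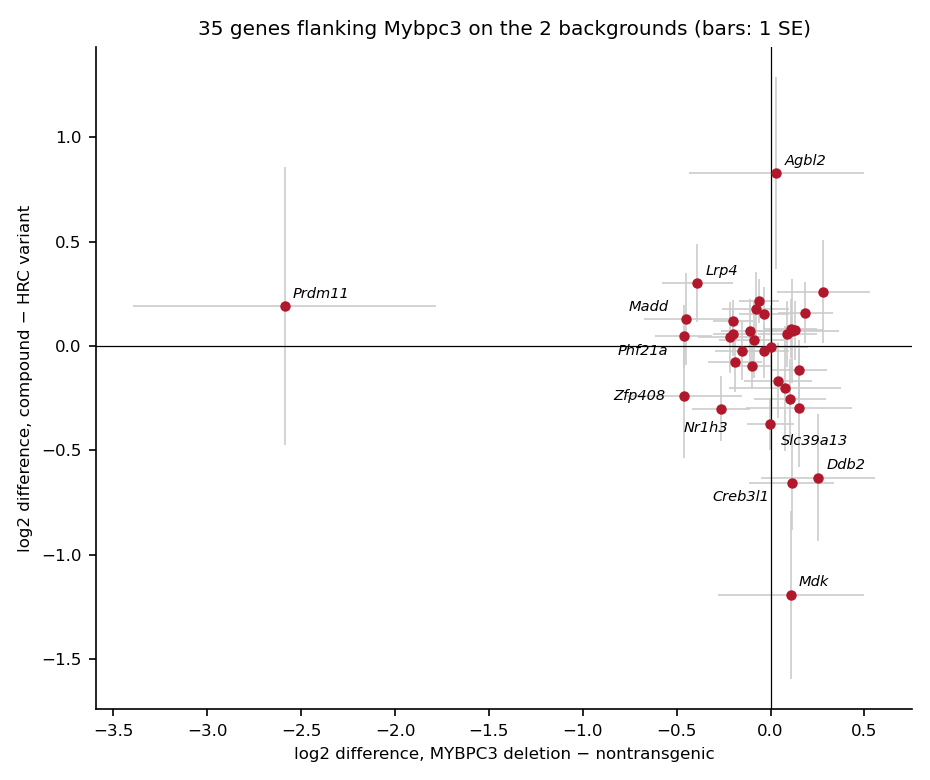
Fitted log2 difference of the deletion for the 35 flanking genes without the HRC variant (horizontal axis, MYBPC3 deletion less nontransgenic) and with it (vertical axis, compound less HRC variant). Bars are 1 SE, and the comparisons share no library but come from the same fit, with a shared spread and sex term. Most genes lie near 0 on both axes, Prdm11 lies apart at -2.59 on the horizontal axis, Mdk at -1.19 on the vertical axis, and 15 of the 35 have the same sign on both.

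Counted by single libraries, no gene of the 35 had all 6 carriers on one side of all 6 non-carriers, against 0.238% of all genes tested (33). For the MYBPC3 deletion against nontransgenic, 4 of the 35 (11.4%) had no overlap between the 3 and 3 libraries, against 10.4% of all genes. These were Madd, Ambra1, Phf21a and Prdm11, all lower in the MYBPC3 deletion libraries, where 5.5% of all genes were lower and 4.9% higher without overlap. For compound against HRC variant, 6 of the 35 (17.1%) had no overlap, against 12.4% of all genes. Agbl2, Arfgap2 and Lrp4 were higher in the compound libraries, as 6.2% of all genes were, and Slc39a13, Nr1h3 and Mdk were lower, as 6.22% of all genes were. None of the genes without overlap on one background was without overlap on the other.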

How the data were processed

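Polyadenylated RNA of 12 whole mouse hearts was sequenced, per the labels' protocols. The authors deposited a table of expected counts per gene (estimated reads, of which 94.3% were whole with no tolerance), FPKM and TPM, with their log2 fold changes and DESeq2 p-values and q-values. Per the submitters' processing notes, the build was GRCm38.p6 and the tools included Bowtie2, HISAT and DESeq2. Their roles, the counter with its strand setting and the gene annotation used were not given in the sources at hand. No column of per-sample values was left unused for lack of a sample (0 columns), and the authors' TPM values and group means were not used in a result.

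Rounded counts were tested by edgeR 4.0.16 under R 4.3.3 (filter on low counts with a minimum of 10, TMM scaling, robust quasi-likelihood fit). One model with group and sex over all 12 libraries left 7 residual degrees of freedom. Adjusted p-values are Benjamini-Hochberg values over all 13849 genes tested of 17379, with a threshold of 0.05, and 1 row without values was dropped. CPM use TMM-scaled library sizes, and levels are compared between genes only as the authors' FPKM. An interval is the log2 difference with 95% limits from its SE and the fit's degrees of freedom. DESeq2 1.42.0 and limma-voom (limma 3.58.1) were alternatives, beside no sex term, female libraries alone, other size factors and filters, a replicate block and leaving out each library. The scripts were tested on simulated data. Same-numbered samples did not deviate together (given in the closing section), so the numbers were not treated as pairs.

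Named in the text are Mybpc3, the 5 genes with the smallest edgeR p in each contrast, the 4 nearest on each side, the 3 highest and 3 lowest per length, and genes at the limits of the rule. Other members are named within groups by function. The members, the groups and the marker lists were chosen with earlier results of these data known. Strands come from GENCODE M21 (GRCm38) and promoter windows from RefSeq (GRCm38.p6).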

Additional observations from a re-analysis of the deposited data

Results flagged for a closer look

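Among 70 groups of 6 libraries (35 genes, carriers and non-carriers), 6 held a library whose gap to its nearest neighbour exceeded Dixon's 95% critical share of the group's range. That critical value gives such a gap in about 1 in 20 groups where all 6 values come from a single normal distribution. These groups mix genotypes and sexes and reuse the same libraries, so the count is a description with no test. Among carriers, Nup160 stood at 6.72 CPM in MYBPC3 deletion replicate 2, with the next library at 12.9 CPM. Nr1h3 stood at 38.9 CPM in the same library, with the next carrier at 27.2 CPM. Arhgap1 stood at 54.3 CPM in MYBPC3 deletion replicate 3, next to 47.9 CPM. Dgkz stood at 78.8 CPM in that library, next to 90.2 CPM. Among non-carriers, Zfp408 stood at 9.88 CPM in HRC variant replicate 3, next to 7.27 CPM, and Arfgap2 at 75.3 CPM in nontransgenic replicate 1, next to 65.9 CPM. Of these 6 values, 4 are from MYBPC3 deletion libraries.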

How the results depend on the processing

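No flanking gene was called in any of the 4 contrasts under any alternative run, DESeq2, limma-voom and each left-out library included. For the genes named by the stated rule between carriers and non-carriers, the 5 smallest-p genes of each contrast and Mybpc3, 847 alternative values were computed in 38 combinations of gene and contrast. Of these, 27 had the other sign, in 7 combinations whose own intervals include 0, and the cause was not tested. In the carrier difference, female libraries alone gave 0.12 for Spi1, 0.04 for Celf1 and 0.07 for Acp2. With both libraries high in B-cell markers left out, Lrp4 gave 0.08, Spi1 0.00, Celf1 0.08 and Acp2 0.07. With the HRC variant libraries high in atrial markers left out, Lrp4 gave 0.07, Acp2 0.11 and Mtch2 -0.05, and Mybpc3 gave -0.05 for compound against HRC variant. Both omissions were chosen after seeing the data. Over single left-out libraries the carrier difference spanned -0.14 to 0.04 for Lrp4, -0.19 to 0.13 for Spi1, -0.14 to 0.01 for Rapsn, -0.12 to 0.05 for Celf1 and -0.08 to 0.07 for Acp2. Of the 847 values, 2 passed the threshold where edgeR's did not, both of Mybpc3 by DESeq2, at -0.61 for the MYBPC3 deletion and 0.76 for the difference between backgrounds. Among the genes named, DESeq2's own filter left no adjusted p for Prdm11 in the MYBPC3 deletion comparison. In the difference between backgrounds it left none for Prdm11, Lrp4, Creb3l1 and Mdk. The filter works on mean reads, so other members with few reads may lack an adjusted p too. A gene without an adjusted p cannot be called. The count of genes whose 6 carriers and 6 non-carriers do not overlap was 0, and between 0 and 2 when single libraries were left out. It was 2 (Nr1h3 and Agbl2) without MYBPC3 deletion replicate 2, and also 2 with both libraries high in B-cell markers left out. In those settings 5.71% of the 35 genes stood without overlap, against 0.52% and 0.953% of all genes. Both settings drop MYBPC3 deletion replicate 2, the carrier library that broke the separation of these genes, so the shares are descriptions with no test. The median carrier difference of -0.06 was 0.01 without nontransgenic replicate 2 and 0.00 without HRC variant replicate 1. A replicate block gave 0 called genes of the 35 in all 4 contrasts, 1 of all genes in the difference between backgrounds, and a median carrier difference of -0.05. Of 18 same-numbered pairs of libraries, 5 correlated over 0.1 in their deviations from the group means (range -0.24 to 0.32), so the numbers were not read as pairing. Over all genes, edgeR called 0 between carriers and non-carriers, against 16 by DESeq2. Without HRC variant replicate 3, edgeR called 13 genes between compound and HRC variant, and without HRC variant replicate 1 it called 4, in both cases none of the 35. Prdm11 (1 to 29 reads per library) and Agbl2 (10 to 46) had the fewest reads, and with Mdk are the 3 genes whose carrier intervals reach beyond 2-fold.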
